A study of Rattus norvegicus with 28 samples.

Results

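A set of 9 genes that make, load, break down or sense acetylcholine, or that mark the cholinergic interneuron, were followed across 28 RNA sequencing libraries of rat striatum. They were taken by symbol from the 39538 rows of the deposited expression table, which held all 9 of them (Chat, Slc5a7, Slc18a3, Slc17a8, Lhx8, Ache, Chrm1, Chrm2 and Chrm3). The rats were males, either transgenic for the deltaE mutant form of torsinA (TG, labelled deltaETorA) or wild type (wt), and either left naive or given a crush of the right sciatic nerve lasting 30 seconds. There were 6 TG crush, 6 wt crush, 8 TG naive and 8 wt naive libraries, and every library, the naive ones included, carries a label of 12 weeks past the injury. The transgene models DYT-TOR1A, an inherited dystonia caused by a small deletion in TOR1A, and the sources used here do not name the promoter that drives it. The questions were whether the genotype, the nerve injury or both together altered these genes.

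Cholinergic interneurons are a small minority of striatal neurons, but their axons branch so widely that the striatum is among the brain regions richest in acetylcholine. Choline is taken up by the transporter Slc5a7, acetylated by Chat, packed into vesicles by Slc18a3 and, after release, split by Ache in the extracellular space. Released acetylcholine acts on muscarinic receptors of spiny projection neurons and on autoreceptors of the cholinergic neurons themselves, and anticholinergic drugs are used to treat dystonia. In mouse models of DYT-TOR1A, cholinergic interneurons respond abnormally to dopamine D2 receptor agonists.

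Levels are given in RPM, reads per 1000000 reads assigned to genes. RPM is not corrected for length, so levels of different genes were not compared. Between 29151455 and 38407359 reads were assigned per library, where 0 reads allow up to 0.103 RPM in the shallowest of them (3 reads, counting error only). The human TOR1A transcript lay between 102.5 and 138.6 RPM in TG crush against 0 and 0.447 RPM in wt crush libraries, and between 128.8 and 143.8 RPM in TG naive against 0 and 0.972 RPM in wt naive libraries, so every library matched its labelled genotype. Striatal identity was clear from the spiny neuron markers, with Ppp1r1b between 1300 and 3040 RPM and Drd1 between 135 and 379 RPM. Markers of neighbouring regions varied between libraries: 5 of them (1 TG crush, 1 TG naive and 3 wt naive) held more than 20 RPM of the cortical gene Slc17a7, and Ngfr, which basal forebrain cholinergic neurons express and striatal interneurons largely lack, ranged from 3.04 to 46.1 RPM. TG crush replicate 223 stood apart, with the highest mitochondrial share of assigned reads (18.5%, where the next highest was 15.9%), and results that turn on it are given without it.

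Slc18a3, the vesicular acetylcholine transporter, was listed at 0 reads in all 28 libraries, although Chat was read in every one of them. Both genes form the cholinergic locus, in which the transporter lies inside the first intron of Chat. In the annotation behind the table (Rnor_6.0), Slc18a3 occupies chr16:8682668-8685529 on the minus strand, wholly within Chat at chr16:8576858-8686131 on the same strand, and starts 602 bases from the Chat start. The starts of both genes are shown because this spacing sets the locus apart from the other members, and the start of Slc5a7 because its level followed that of Chat most closely. The windows are RefSeq promoters on GRCr8, from 250 bases before to 50 after the start, read 5′ to 3′ on the gene's strand, and capitals mark GGGCGG or its reverse complement CCGCCC.
Chat: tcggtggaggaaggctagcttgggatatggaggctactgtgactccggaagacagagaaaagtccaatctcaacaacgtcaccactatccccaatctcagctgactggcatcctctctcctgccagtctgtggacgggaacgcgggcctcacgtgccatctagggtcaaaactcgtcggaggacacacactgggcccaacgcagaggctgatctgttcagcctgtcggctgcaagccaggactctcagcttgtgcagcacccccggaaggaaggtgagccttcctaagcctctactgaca
Slc18a3: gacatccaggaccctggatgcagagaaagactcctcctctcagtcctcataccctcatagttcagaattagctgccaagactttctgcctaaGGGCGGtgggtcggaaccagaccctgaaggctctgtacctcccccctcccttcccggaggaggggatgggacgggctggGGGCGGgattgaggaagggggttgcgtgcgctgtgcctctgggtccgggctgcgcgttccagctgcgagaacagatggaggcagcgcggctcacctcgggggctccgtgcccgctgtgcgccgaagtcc
Slc5a7: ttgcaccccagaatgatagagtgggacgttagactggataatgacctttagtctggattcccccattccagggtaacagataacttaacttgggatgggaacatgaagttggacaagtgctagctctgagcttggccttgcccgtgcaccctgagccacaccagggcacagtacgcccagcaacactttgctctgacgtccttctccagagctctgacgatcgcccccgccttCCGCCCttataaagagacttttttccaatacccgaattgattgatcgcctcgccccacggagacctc
The windows lie at chr16:7723367-7723666 for Chat, chr16:7722765-7723064 for Slc18a3 and chr9:7953460-7953759 for Slc5a7, all on the minus strand, and the starts of Chat and Slc18a3 are 602 bases apart on GRCr8 too. All 9 members matched the RefSeq table, with 10 windows because Lhx8 has a pair. GGGCGG, searched on both strands, was found in 6 of the 10 windows (2 matches for Slc18a3, 1 for Slc5a7 and 0 for Chat), and in 34.9% of 27457 rat promoters of the same length. TAATTA, a core recognised by many homeodomain proteins and its own reverse complement, was in 0 of the 10 windows and in 5.35% of all promoters. Such matches describe letters in these windows only.

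The 0 of Slc18a3 was shared by every gene in the same position. Of the 512 protein-coding genes that lie wholly inside another gene on the same strand, 512 (100%) were listed at 0 in all 28 libraries. Of 653 protein-coding genes inside a gene of the opposite strand only, 98 (15%) were at 0, and of the 21775 that lie inside no other gene, 2546 (11.7%). Whether transcripts of Slc18a3 were present can therefore not be read from this table. How reads of the transporter were assigned, and whether any of them were counted for Chat, was not tested. No other member overlaps an annotated gene, and 8 of the 9 members passed the minimum of 0.5 RPM in at least 6 libraries and were tested.

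**Figure D1:**
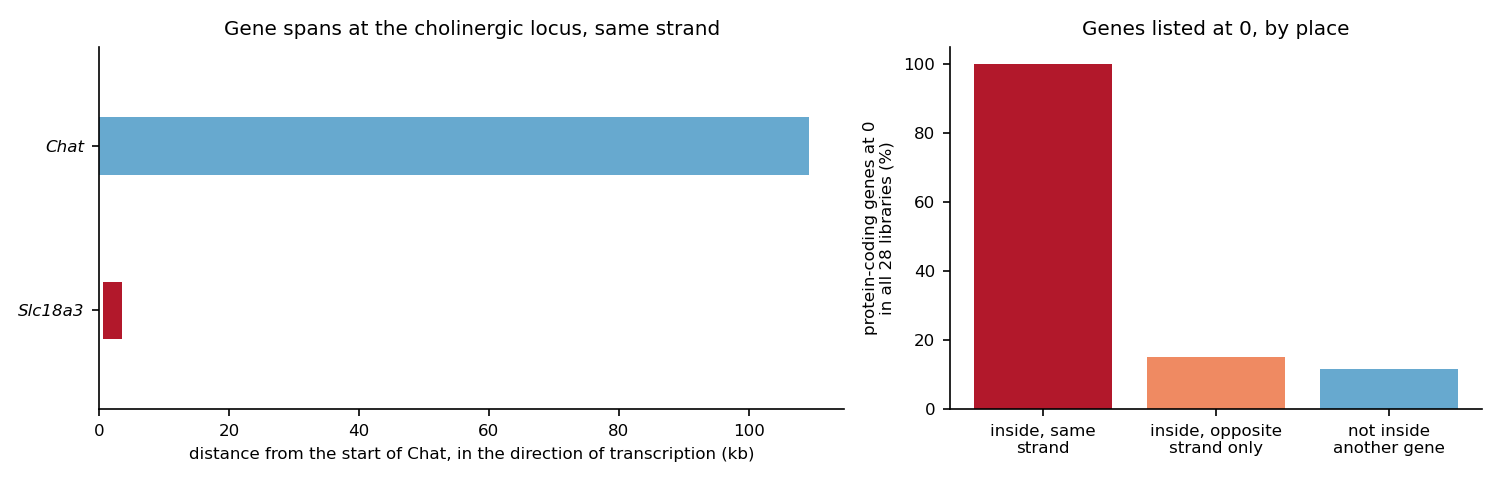
Left, spans of Chat and Slc18a3 by distance from the Chat start (kb); Slc18a3 begins 602 bases in and lies wholly inside Chat. Right, share of protein-coding genes listed at 0 in all 28 libraries by their place (percent): 100% of those inside a gene of the same strand, 15% of those inside a gene of the opposite strand only and 11.7% of those inside no other gene.

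Chat, choline acetyltransferase (chr16), had a lowest, median and highest level of 11.9, 21.8 and 27.1 RPM in TG crush, 18.4, 21.3 and 26.1 RPM in wt crush, 12.7, 18.5 and 32.6 RPM in TG naive and 15.7, 21.3 and 29.6 RPM in wt naive libraries. All 4 groups overlapped, and the highest and the lowest library were both TG, the lowest being TG crush replicate 223. Its mean was 20.3 ± 6.01 RPM in TG crush and 21.5 ± 3.11 RPM in wt crush rats (SD, n = 6 each), and 19.7 ± 6.27 RPM in TG naive and 22 ± 4.87 RPM in wt naive rats (SD, n = 8 each). In a bulk sample, fewer cells of a type and less RNA per cell cannot be told apart, here and for every gene that follows.

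Slc5a7, the high-affinity choline transporter that feeds acetylcholine synthesis (chr9:5294377-5330822, minus strand), had 15.8, 36.9 and 48.6 RPM as the lowest, median and highest level in TG crush and 21.8, 25.9 and 28.6 RPM in wt crush libraries. In naive rats the corresponding levels were 13.2, 20 and 42.2 RPM in TG and 14.6, 28 and 43.7 RPM in wt libraries. The TG crush libraries fell on both sides of the wt crush ones, 4 of 6 above the highest and 2 of 6 (replicates 223 and 226) below the lowest. The transporter had the widest spread of these genes among TG naive libraries, a coefficient of variation of 39.8%, and one of the narrowest among wt crush libraries, 10.2%.

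Slc17a8, the vesicular glutamate transporter through which cholinergic interneurons also release glutamate (chr7:30215231-30274993, minus strand), was measured in every library. It had 4.06, 8.43 and 15.4 RPM as the lowest, median and highest level in TG crush and 8.38, 9.94 and 12.9 RPM in wt crush libraries, against 4.5, 7.1 and 10.1 RPM in TG naive and 3.93, 6.19 and 11.8 RPM in wt naive libraries. Each of the 6 wt crush libraries lay above the wt naive median, though only 1 lay above every wt naive library. Lhx8, a LIM homeodomain factor needed for forebrain cholinergic neurons to form (chr2:260572205-260598744, minus strand), had 6.59, 8.79 and 12.8 RPM in TG crush and 6.44, 8.26 and 9.57 RPM in wt crush libraries as the lowest, median and highest level. It had 6.12, 8.39 and 16.4 RPM in TG naive and 5.98, 8.98 and 16.9 RPM in wt naive libraries, so that the naive groups reached higher than the crush groups in single libraries.

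Ache, the esterase that ends the acetylcholine signal (chr12:22472358-22477052, minus strand), averaged 71.1 ± 14.8 RPM in TG crush and 71.6 ± 8.27 RPM in wt crush rats (SD, n = 6 each), and 66.5 ± 15.4 RPM in TG naive and 74.6 ± 14.6 RPM in wt naive rats (SD, n = 8 each). Its lowest library, 45 RPM, was TG crush replicate 223, and its highest, 103.8 RPM, was a wt naive one.

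Among the muscarinic receptors, Chrm1, the Gq-coupled M1 receptor carried by spiny projection neurons (chr1:224869087-224885101, plus strand), had 67.2, 118.4 and 131.4 RPM as the lowest, median and highest level in TG crush and 103.5, 125.5 and 131.9 RPM in wt crush libraries. It had 85, 101.3 and 112.9 RPM in TG naive and 79.1, 100.2 and 123.2 RPM in wt naive libraries. The TG crush minimum was again replicate 223, and 4 of the other 5 TG crush libraries lay above every TG naive library. Chrm2, the Gi-coupled M2 autoreceptor of cholinergic terminals (chr4:64089028-64091090, plus strand), was the most sparsely read member, with 57 to 161 reads per library. It averaged 3.48 ± 0.951 RPM in TG crush and 3.37 ± 0.528 RPM in wt crush rats (SD, n = 6 each), and 2.92 ± 0.842 RPM in TG naive and 3.25 ± 0.844 RPM in wt naive rats (SD, n = 8 each). Chrm3, the Gq-coupled M3 receptor (chr17:63990599-64463222, minus strand), averaged 13.9 ± 4.14 RPM in TG crush and 17.5 ± 1.94 RPM in wt crush rats (SD, n = 6 each), and 15.9 ± 4.4 RPM in TG naive and 14.2 ± 3.81 RPM in wt naive rats (SD, n = 8 each). Its lowest library was once more TG crush replicate 223, at 6.6 RPM.

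**Figure D2:**
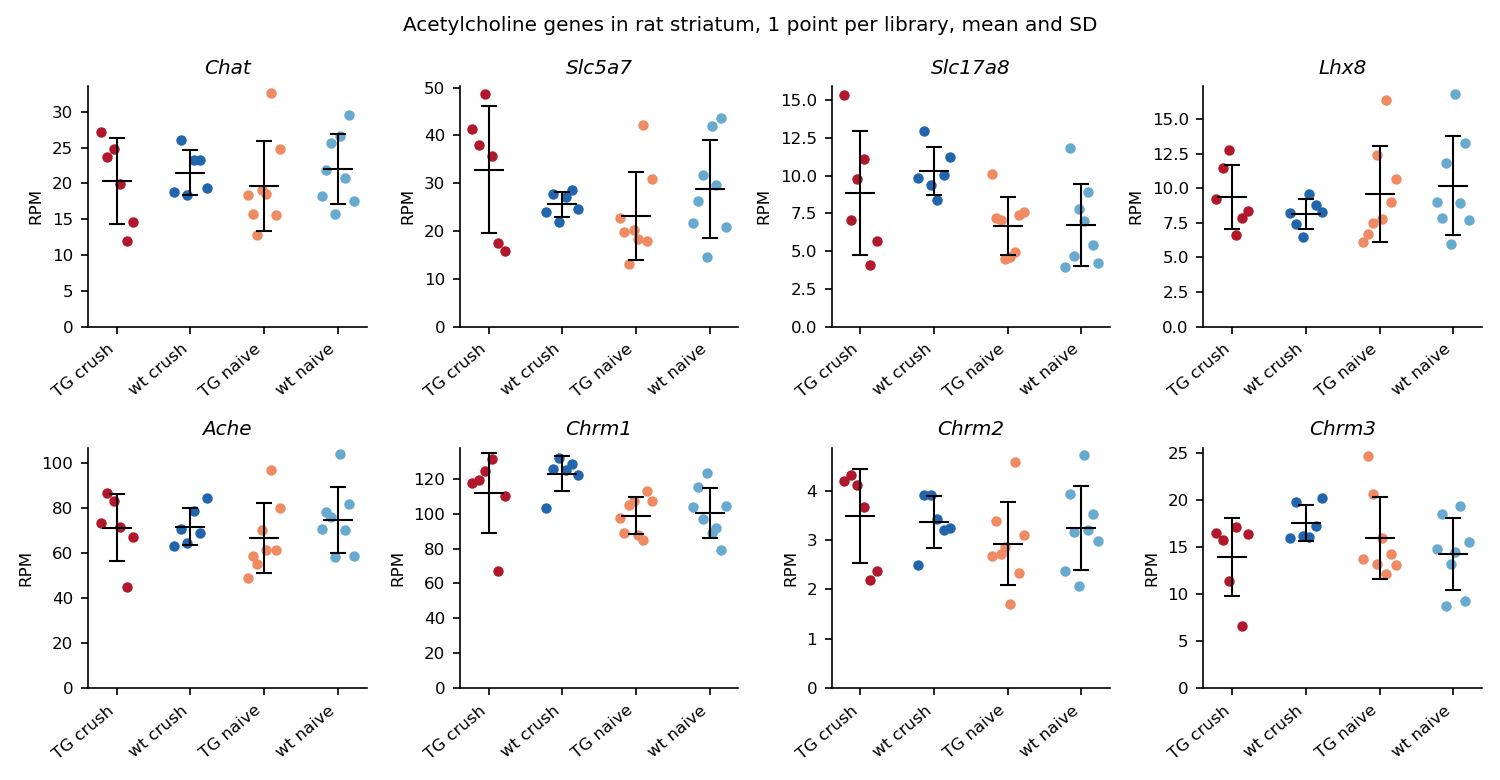
Level of 8 acetylcholine genes (RPM, linear axes from 0), 1 point per library, with the mean and SD of each group (n = 6 for each crush group, n = 8 for each naive group). The groups overlap for every gene. TG crush replicate 223 is the lowest point of its group for Chrm1 (67.2 RPM) and Chrm3 (6.6 RPM). It is also the lowest of its group for Chat (11.9 RPM), Slc17a8 (4.06 RPM), Ache (45 RPM) and Chrm2 (2.2 RPM), but not for Slc5a7 and Lhx8.

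In naive rats, no acetylcholine gene passed the test between TG and wt. By limma's test on log2 (RPM + 0.5), adjusted over all 18222 genes tested, 0 of 8 members passed an adjusted p under 0.05 and 0 had an unadjusted p under 0.05. Among all genes, 6 (0.0329%) passed and 4.98% had an unadjusted p under 0.05. Slc5a7 had the log2 change furthest from 0, -0.31 (SE 0.23, 95% interval -0.79 to 0.16), and that of Chat was -0.18 (SE 0.17, 95% interval -0.52 to 0.16). Ache had -0.17 (SE 0.13) and Chrm3 0.17 (SE 0.18), and the adjusted p was 0.999 for each of the 8. The median log2 change of the members was -0.11, against -0.01 over all genes tested.

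After nerve crush, no member passed the test between TG and wt rats either. Of the 8 members, 0 passed the adjusted p and 0 had an unadjusted p under 0.05, where 0.00549% of all genes passed (1 of 18222) and 8.06% had an unadjusted p under 0.05. Chrm3 was nearest, with a log2 change of -0.38 (SE 0.20, adjusted p = 0.631) and an exact two-sided permutation p of 0.0909 over 924 arrangements of the libraries. Without TG crush replicate 223 this change was -0.19. The M3 receptor was below every wt crush library in 3 of 6 TG crush libraries. Slc17a8 had a log2 change of -0.32 (SE 0.25), Slc5a7 of 0.24 (SE 0.27) and Chat of -0.12 (SE 0.19). Spiny neuron markers had a mean log2 level of 9.26 ± 0.358 in TG crush and 9.54 ± 0.0768 in wt crush rats (SD, n = 6 each). With that level added as a covariate, the log2 change of Chrm3 was -0.15 (adjusted p = 0.992). Averaged over both arms, 0 of 8 members passed (0.0384% of all genes did) and 0 had an unadjusted p under 0.05 (5.09% of all genes did), with log2 changes of TG against wt between -0.15 for Chat and 0.04 for Lhx8.

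In TG rats, nerve crush was followed by higher mean levels of most members, none of which passed the test. Of the 8 members, 0 passed the adjusted p and 0 had an unadjusted p under 0.05, against 3.08% and 19.3% of all genes. Slc5a7 had a log2 change of 0.46 (SE 0.25, 95% interval -0.05 to 0.98, adjusted p = 0.318), with an exact permutation p of 0.168 over 3003 arrangements. Slc17a8 followed with 0.31 (SE 0.24) and Chrm2 with 0.22 (SE 0.17), while Chat had 0.04 (SE 0.18) and Chrm3 -0.21 (SE 0.19). The change of Chrm3 was -0.02 when TG crush replicate 223 was left out. Chrm1 had 0.15 (SE 0.11, adjusted p = 0.503). Without TG crush replicate 223, the library that stood apart, Chrm1 passed, with a log2 change of 0.29 (SE 0.09, adjusted p = 0.0424). In that setting 1218 of all genes passed, where 562 did with every library.

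In wt rats, Slc17a8 and Chrm1 were the members with the clearest difference between crush and naive libraries, but neither passed the adjusted test. Slc17a8 had a log2 change of 0.65 (SE 0.24, unadjusted p = 0.00961, adjusted p = 0.152), and its exact permutation p was 0.0173. Chrm1 had 0.30 (SE 0.11, unadjusted p = 0.0124, adjusted p = 0.161), with an exact permutation p of 0.0107, and 4 of 6 wt crush libraries lay above every wt naive library. Members called numbered 0 of 8, where 0.159% of all genes were called, and 2 of 8 had an unadjusted p under 0.05, where 20.8% of all genes did, a share near that background. Chrm3 had 0.33 (SE 0.19), Lhx8 -0.25 (SE 0.20), Chat -0.01 (SE 0.18) and Slc5a7 -0.09 (SE 0.25). With libraries weighted by their quality (array weights), Chrm1 (0.30, adjusted p = 0.0235) and Slc17a8 (0.66, adjusted p = 0.0388) both passed. In that setting 1436 of all genes passed, where 29 did without weights.

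Marker levels differed in mean between the same wt groups, though 0 of the 13 spiny neuron, 0 of the 6 pallidum, septum and basal forebrain, 0 of the 5 tested cortical, 0 of the 3 thalamus, 0 of the 6 microglial and 0 of the 4 tested pituitary markers passed. Of all genes 0.159% passed, and 20.8% had an unadjusted p under 0.05. Such a p was found for 10 of the spiny neuron, 5 of the microglial and 3 of the cortical markers. The thalamus and pituitary lists held 2 each, and the pallidum, septum and basal forebrain list 1. The mean log2 level of 13 spiny neuron markers was 9.54 ± 0.0768 in wt crush (SD, n = 6) and 9.15 ± 0.426 in wt naive rats (SD, n = 8), and their summed level ran from 12280 to 14050 RPM in wt crush and from 7058 to 13940 RPM in wt naive libraries. The summed level of 6 markers of pallidum, septum and basal forebrain ran from 51.2 to 69.2 RPM in wt crush and from 55 to 102.1 RPM in wt naive libraries, with none of the 6 at 0 in any library. The difference in mean log2 level, wt crush minus wt naive, was 0.39 for the spiny neuron, -0.38 for the pallidum, septum and basal forebrain, -0.78 for the cortical, -0.46 for the thalamus, -0.32 for the microglial and 1.41 for the pituitary markers. It was -0.48 for the choroid plexus, -0.21 for the astrocyte and -0.19 for the endothelial and pericyte markers. Of these, 0 of 5 tested, 3 of 7 and 2 of 6 had an unadjusted p under 0.05, and 0 passed. Oligodendrocyte, habenula and blood markers had -0.125, 0.03 and 0.09. With the spiny neuron level added as a covariate, the wt change of Slc17a8 was 0.33 (adjusted p = 0.861) and that of Chrm1 0.12 (adjusted p = 0.863). With the cortical level instead they were 0.47 (adjusted p = 0.353) and 0.32 (adjusted p = 0.278). The pallidum, septum and basal forebrain level gave 0.42 (adjusted p = 0.475) and 0.24 (adjusted p = 0.468). In TG rats the spiny neuron covariate gave 0.34 (adjusted p = 0.302) for Slc17a8 and 0.16 (adjusted p = 0.246) for Chrm1.

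Averaged over both genotypes, crush against naive gave the members' lowest adjusted p-values, 0.0573 for Slc17a8 (log2 change 0.48, SE 0.17) and 0.0626 for Chrm1 (log2 change 0.22, SE 0.08). Members called were 0 of 8, where 11.4% of all genes were called, and 2 of 8 had an unadjusted p under 0.05, where 28.5% of all genes did. These values sit at the threshold: 1 or both genes passed with median-of-ratios rescaling, with quantile normalization, with array weights and when any 1 of 7 libraries was left out. In those settings between 1936 and 4579 of all 18222 genes passed, where 2086 did in the main fit. Without TG crush replicate 223 both passed, Chrm1 at 0.29 (adjusted p = 0.00188) and Slc17a8 at 0.57 (adjusted p = 0.0126), and so did 3727 of all genes. With the spiny neuron level added as a covariate, neither passed, at 0.14 (adjusted p = 0.158) for Chrm1 and 0.33 (adjusted p = 0.149) for Slc17a8. The cortical level as a covariate gave 0.23 (adjusted p = 0.0644) for Chrm1 and 0.41 (adjusted p = 0.0985) for Slc17a8. Chat (0.01, SE 0.13), Ache (0.03, SE 0.10) and Chrm3 (0.06, SE 0.13) had changes near 0. Of the marker lists, in the same comparison, 3 of 6 microglial, 3 of 6 endothelial and pericyte, 2 of 7 astrocyte and 1 of 6 pallidum, septum and basal forebrain markers were lower, and 2 of 4 tested pituitary markers were higher. The 13 spiny neuron markers and the tested cortical, habenula, thalamus, choroid plexus, oligodendrocyte and blood markers held 0 calls.

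No member passed the test of whether the response to injury differed between genotypes. In this interaction, 0 of 8 members and 0.00549% of all genes passed, and 0 of 8 members and 7.49% of all genes had an unadjusted p under 0.05. Slc5a7 had the highest difference of log2 changes, TG minus wt, at 0.55 (SE 0.35, 95% interval -0.17 to 1.28, adjusted p = 0.716). Chrm3 had the lowest, -0.55 (SE 0.27, unadjusted p = 0.0501, adjusted p = 0.658), which became -0.36 without TG crush replicate 223. The interval of Chrm3 reached down to -1.10, so differences of such sizes lie within what these libraries allow.

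**Figure D3:**
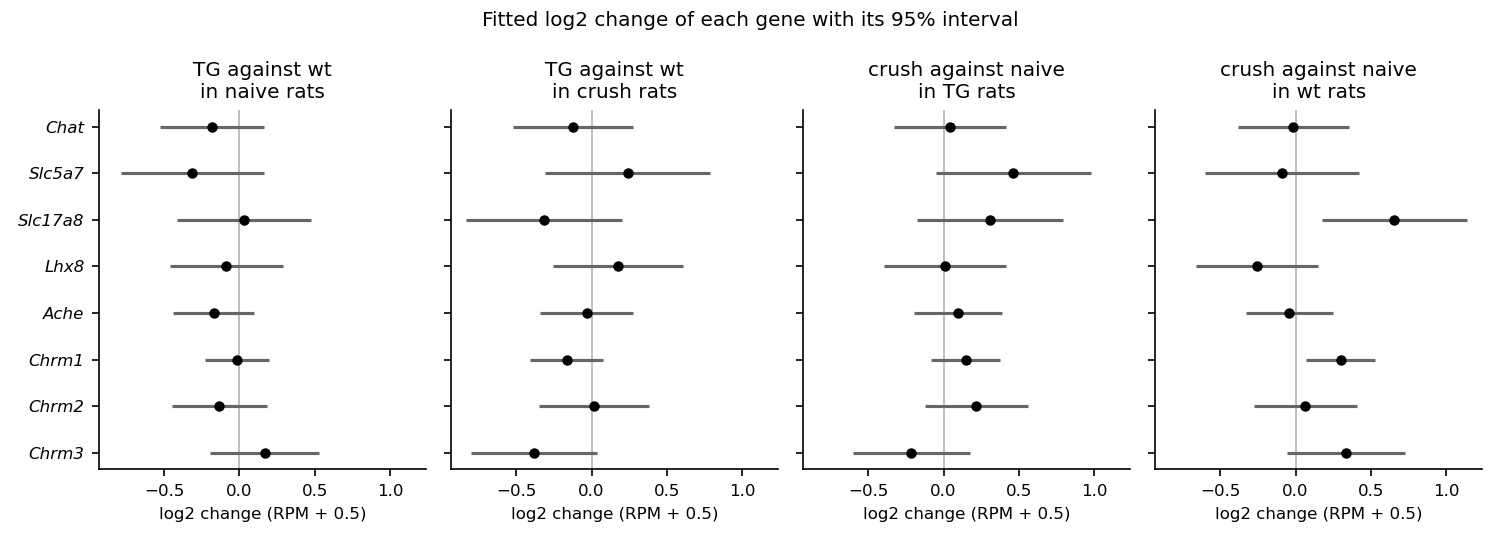
Fitted log2 change of each gene (log2 of RPM + 0.5) with its 95% interval in the 4 comparisons of groups, all libraries in 1 fit. The interval leaves out 0 only for Slc17a8 (0.65) and Chrm1 (0.30) in crush against naive wt rats, before adjustment over all genes.

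Few other genes of the acetylcholine pathway passed. Of 62 in 7 lists, 50 were tested, and 0 passed in 6 of the 7 contrasts, where 0.00549% to 3.08% of all genes passed. With the genotypes averaged, crush rats had 2 of the 50 higher (Colq and Kcnq3), where 3.03% of all genes were, and 2 lower (Grk2 and Gnai2), where 8.42% of all genes were. Unadjusted p-values under 0.05 were most frequent in wt crush against wt naive rats, for 14 of the 50, where 20.8% of all genes had one.

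Colq, the collagen tail that anchors acetylcholinesterase, rose with a log2 change of 0.45 (SE 0.13, adjusted p = 0.029). Its level was 2.14 ± 0.837 RPM in TG crush and 3.08 ± 0.381 RPM in wt crush rats (SD, n = 6 each), against 1.69 ± 0.671 RPM in TG naive and 1.89 ± 0.587 RPM in wt naive rats (SD, n = 8 each). Among its list of esterase partners, 1 of 3 tested genes passed. Leaving out TG crush replicate 214 ended the call of Colq (0.38, adjusted p = 0.0601), as did the spiny neuron covariate (0.37, adjusted p = 0.0737), the basal forebrain covariate (0.33, adjusted p = 0.106), leaving out the libraries high in Slc17a7 (0.46, adjusted p = 0.0777) and testing with no minimum (0.45, adjusted p = 0.0553).

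Of 11 tested muscarinic signalling partners 3 passed, where 11.4% of all genes did. Kcnq3, a subunit of the M-current channel that muscarinic receptors close, rose by 0.33 (SE 0.10, adjusted p = 0.0409), at 104.3 ± 15.2 RPM in TG crush and 115.3 ± 12.3 RPM in wt crush rats (SD, n = 6 each), against 89 ± 21.1 RPM in TG naive and 89.1 ± 22.9 RPM in wt naive rats (SD, n = 8 each). Grk2, the kinase that desensitises these receptors, fell by 0.19 (SE 0.06, adjusted p = 0.0375), and the inhibitory G protein subunit Gnai2 fell by 0.16 (SE 0.05, adjusted p = 0.0479). With the spiny neuron covariate none of the 3 passed, at 0.21 for Kcnq3 (adjusted p = 0.0866), -0.12 for Grk2 (adjusted p = 0.0704) and -0.10 for Gnai2 (adjusted p = 0.0941). With the basal forebrain covariate their adjusted p was 0.144, 0.129 and 0.152 in the same order, and without the libraries high in Slc17a7 it was 0.158, 0.158 and 0.227. Testing with no minimum also ended all 3 calls (adjusted p = 0.0744, 0.0641 and 0.0805 in that order). The cortical covariate ended those of Kcnq3 (adjusted p = 0.068) and Gnai2 (adjusted p = 0.0734). Median-of-ratios rescaling and quantile normalization ended that of Gnai2 alone. In all, 5 of 13 alternatives ended the call of Kcnq3, 4 of 14 that of Grk2 and 7 of 14 that of Gnai2. When 1 library at a time was left out, the call ended in 17 of 28 cases for Kcnq3, 11 for Grk2 and 21 for Gnai2.

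The remaining lists held no call with the genotypes averaged. Of 16 nicotinic receptor subunits 7 were tested. Chrnb4, a subunit best known from habenula and ganglia, had the lowest p of these, with a log2 change of 0.30 (SE 0.11, adjusted p = 0.857) in TG against wt naive rats. Its mean level was 0.467 RPM, below the 0.5 RPM added before the logarithm, and this change ran from 0.19 to 0.64 over the alternatives. The M4 receptor gene Chrm4, carried by spiny neurons of the direct pathway, had 0.33 (SE 0.14, adjusted p = 0.19) in wt crush against wt naive rats, and the M5 gene Chrm5 had its lowest p in TG against wt naive rats (-0.17, SE 0.25). Among the 10 genes of choline uptake and acetyl-CoA supply, the choline kinase Chka had an interaction of 0.34 (SE 0.09, adjusted p = 0.348). Of the 7 tested prototoxins and assembly factors, Lypd6 had -0.20 (SE 0.09, adjusted p = 0.235) in wt crush against wt naive rats. The genes of cholinergic neuron development and identity, 10 of 11 tested, were led in the same comparison by the LIM factor Isl1 at 0.35 (SE 0.13, adjusted p = 0.164), the substance P receptor Tacr1 at 0.34 (SE 0.12, adjusted p = 0.153) and Kit at 0.28 (SE 0.12, adjusted p = 0.198). In that comparison 0 of 13 spiny neuron markers passed and 10 had an unadjusted p under 0.05, where 0.159% and 20.8% of all genes did. The median log2 change of these 13 markers was 0.39, against -0.03 over all genes tested.

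Within groups, several members varied together from library to library. With each group's mean removed, Chat and Slc5a7 correlated across the 28 libraries with Pearson's r = 0.939 and Spearman's rho = 0.94. Both permutation p-values were 1e-05, the smallest that 100000 permutations within groups can give, and r was 0.922 without the 2 libraries farthest from the median of Chat. Of 28 pairs of members, 10 had an adjusted p under 0.05 for Pearson's r (Benjamini-Hochberg over the pairs), and these joined Chat, Slc5a7, Lhx8, Ache and Chrm2 with each other, every pair of the 5. All values of a library share its total. With median-of-ratios rescaling, Lhx8 with Chrm2 no longer passed (r = 0.466, adjusted permutation p = 0.0577) and Slc17a8 with Chrm3 did (r = 0.531, adjusted permutation p = 0.0437).

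Ache correlated with Chat at r = 0.803 (rho = 0.82, permutation p = 2e-05 and 1e-05) and with Lhx8 at r = 0.804 (rho = 0.801, permutation p = 1e-05 and 2e-05). Without the 2 farthest libraries r was 0.696 and 0.702. Chrm2 correlated with Slc5a7 at r = 0.781 (rho = 0.765, permutation p = 1e-04 and 0.00015; 0.716 without the 2 farthest libraries). The weakest of the 10 was Lhx8 with Chrm2, r = 0.529 (rho = 0.438), with adjusted permutation p-values of 0.0297 and 0.0853, and r fell to 0.316 without 2 libraries. Slc17a8, Chrm1 and Chrm3 entered none of the 10 pairs, their highest being Slc17a8 with Chrm3, r = 0.505 (rho = 0.388, adjusted permutation p = 0.0634 and 0.141).

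Within arms, only the pair of Chat and Slc5a7 passed in both. Among the 16 naive libraries 13 of 28 pairs passed, Chat and Slc5a7 at r = 0.956 (rho = 0.926, adjusted permutation p = 0.00014 and 0.00028), and Chat correlated negatively with Chrm1 (r = -0.573, rho = -0.485, adjusted permutation p = 0.045 and 0.128) and with Chrm3 (r = -0.6, rho = -0.597, adjusted permutation p = 0.0399 and 0.054). Among the 12 crush libraries 1 pair passed, Chat and Slc5a7 at r = 0.913 (rho = 0.902, adjusted permutation p = 0.0347 and 0.0123). There Chat and Chrm1 had r = 0.726 (rho = 0.559), the opposite sign to the naive libraries, with adjusted permutation p-values of 0.0903 and 0.204, and r was 0.439 without the 2 farthest libraries.

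Apart from Chrm2, the members divided by which marker genes they followed. Of 112 relations between a member and a marker level or library measure, 24 had an adjusted p under 0.05. Lhx8 followed the mean log2 level of the 6 markers of pallidum, septum and basal forebrain (r = 0.873, rho = 0.846, adjusted permutation p = 0.00056 for both) and went against the spiny neuron level (r = -0.745, rho = -0.744, adjusted permutation p = 0.00364 and 0.0028). These 6 were Ngfr, Gbx1, Nkx2-1, Zic1, Npas1 and Kcng4. Whether striatal interneurons also contribute to the level of this list was not tested. Ache followed the markers of pallidum, septum and basal forebrain at r = 0.733 (rho = 0.718, adjusted permutation p = 0.00336 and 0.0028), Chat at r = 0.558 (rho = 0.515, adjusted permutation p = 0.0398 and 0.0623) and Slc5a7 at r = 0.533 (rho = 0.47, adjusted permutation p = 0.0468 and 0.0879). The same 4 genes followed the 3 thalamus markers, Lhx8 at r = 0.897 (rho = 0.825, adjusted permutation p = 0.00056 for both), Ache at r = 0.668 (rho = 0.639), Chat at r = 0.586 (rho = 0.501) and Slc5a7 at r = 0.579 (rho = 0.459). The adjusted permutation p of r and of rho was 0.00392 and 0.0131 for Ache, 0.0195 and 0.0623 for Chat, and 0.0274 and 0.0879 for Slc5a7. Without the 2 farthest libraries r was 0.87 for Lhx8, 0.597 for Ache, 0.426 for Chat and 0.428 for Slc5a7. Chrm2 had r = 0.378 with the markers of pallidum, septum and basal forebrain (adjusted permutation p = 0.174). It had r = 0.413 with the thalamus markers (adjusted permutation p = 0.136) and -0.217 with the spiny neuron level (adjusted permutation p = 0.459). Chrm2 went against the endothelial and pericyte level (r = -0.553, rho = -0.506, adjusted permutation p = 0.0373 and 0.0629). The same held for the blood level (r = -0.52, rho = -0.427, adjusted permutation p = 0.0452 and 0.0879).

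Chrm3 and Chrm1 followed the spiny neuron level instead, at r = 0.7 (rho = 0.652, adjusted permutation p = 0.00627 and 0.0131) and r = 0.66 (rho = 0.507, adjusted permutation p = 0.00691 and 0.0623). Slc17a8 did so at r = 0.578 (rho = 0.573, adjusted permutation p = 0.0433 and 0.0515). Chrm1 went against the oligodendrocyte level (r = -0.742, rho = -0.563, adjusted permutation p = 0.00392 and 0.0378), and r was -0.541 without the 2 farthest libraries. It also went against the astrocyte (r = -0.707, rho = -0.585, adjusted permutation p = 0.00392 and 0.0378) and microglial levels (r = -0.677, rho = -0.623, adjusted permutation p = 0.00392 and 0.0131). Slc17a8 went against the microglial level at r = -0.653 (rho = -0.583, adjusted permutation p = 0.013 and 0.0378) and the astrocyte level at r = -0.63 (rho = -0.51, adjusted permutation p = 0.0351 and 0.0863). Chrm3 went against the choroid plexus level nearly as closely as it followed the spiny neuron level, at r = -0.689 (rho = -0.711, adjusted permutation p = 0.0051 and 0.00605). With the pallidum, septum and basal forebrain level removed as well as the group means, Chat and Slc5a7 still correlated at r = 0.914 (rho = 0.92), Chat and Lhx8 at r = 0.538 (rho = 0.554). Slc17a8 then correlated with Chat at r = 0.716 (rho = 0.637, adjusted permutation p = 0.00068 and 0.00243), where it had r = 0.247 before, and 13 of 28 pairs passed. Among the habenula markers Gpr151 was at 0 in 23 libraries and Pou4f1 in 17, and neither exceeded 0.123 RPM. The others on that list were at 0 in no library: Nwd2 (2.68 to 5.64 RPM), Chrna3 (0.14 to 1.02 RPM) and Chrnb4 (0.237 to 0.789 RPM). Ache had r = 0.539 with the habenula level (rho = 0.56, adjusted permutation p = 0.0506 and 0.0385).

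**Figure D4:**
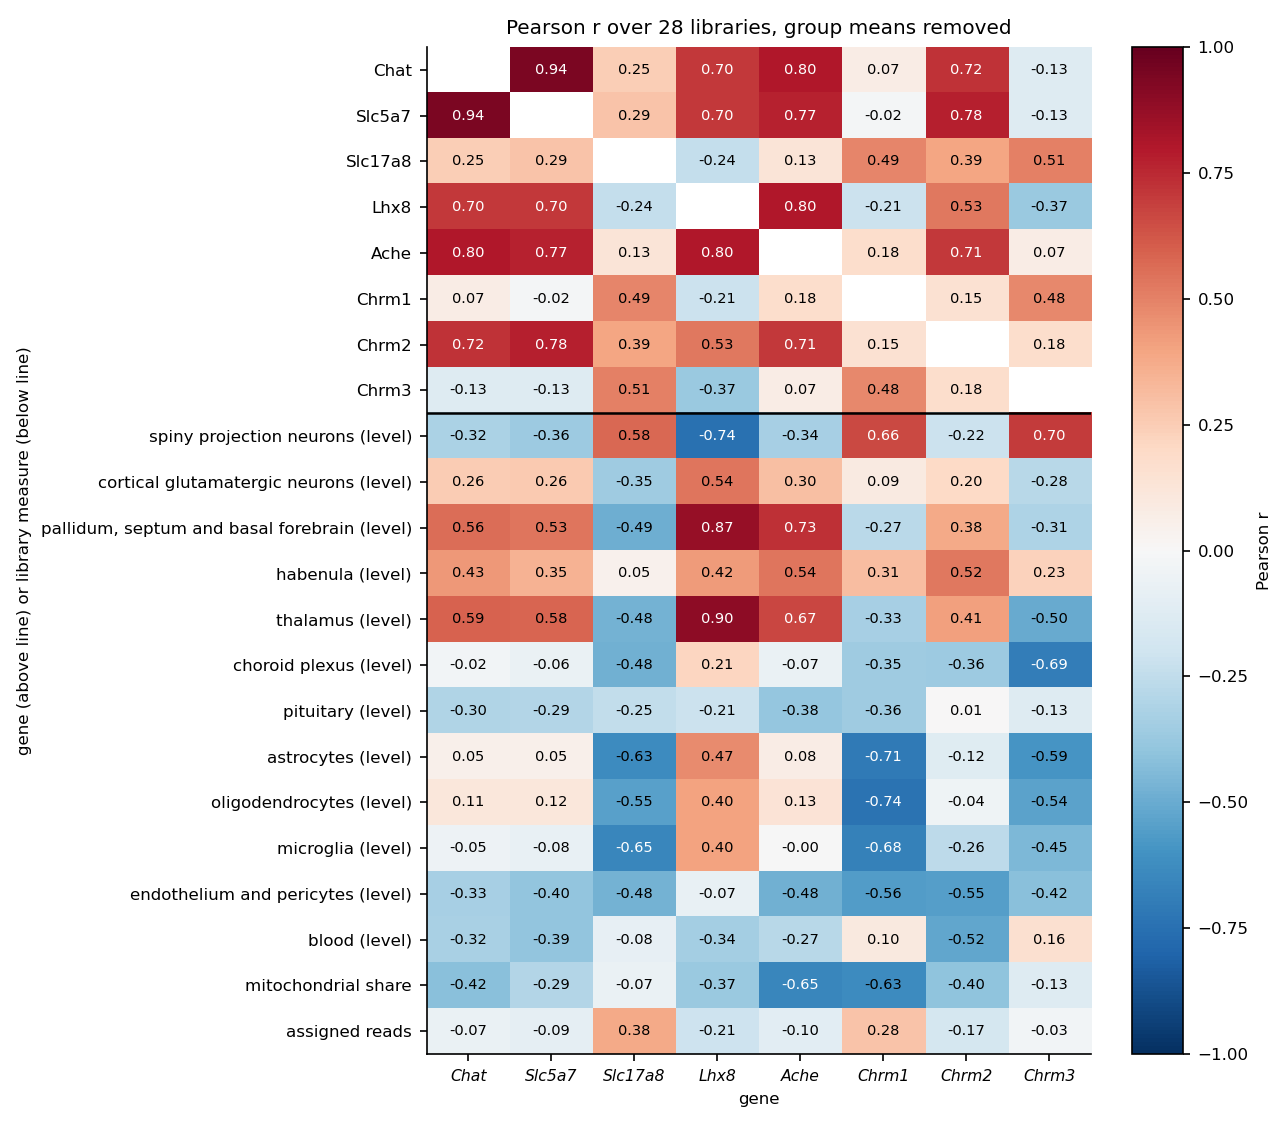
Pearson's r across 28 libraries with group means removed, between the 8 tested genes (above the line) and between them and marker levels, mitochondrial share and assigned reads (below it). Chat, Slc5a7, Lhx8, Ache and Chrm2 form a block led by Chat with Slc5a7 (0.94), while Chrm1 (0.66), Chrm3 (0.70) and Slc17a8 (0.58) follow the spiny neuron level.

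**Figure D5:**
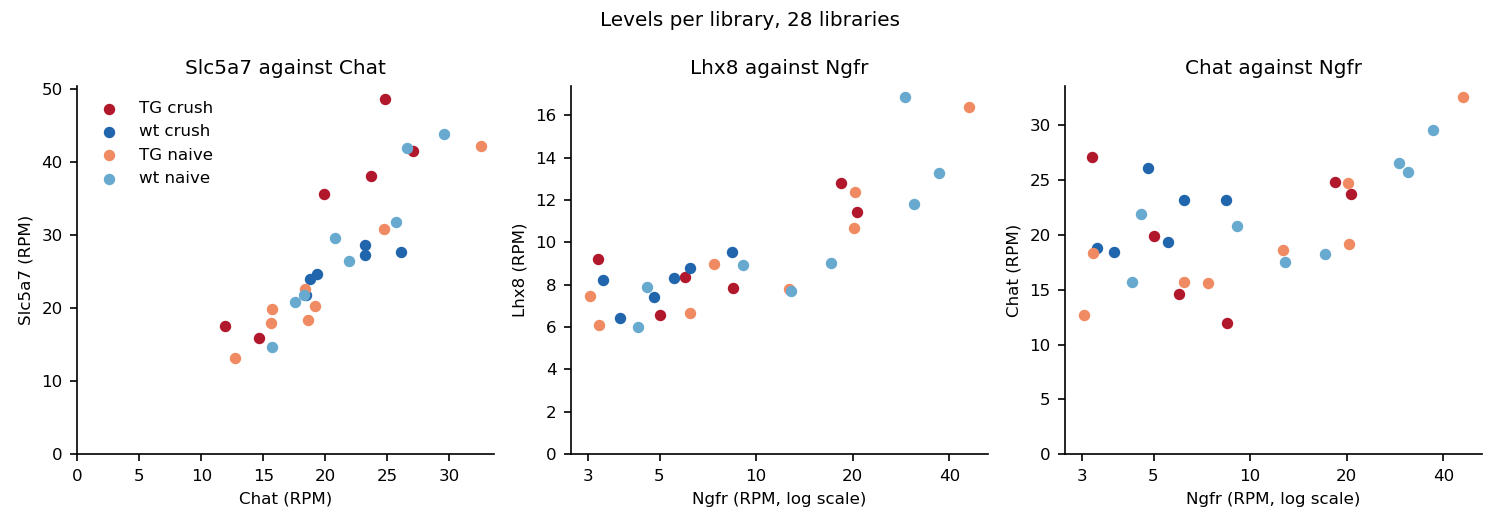
Level per library (RPM; the axis of Ngfr is logarithmic) of Slc5a7 against Chat, Lhx8 against Ngfr and Chat against Ngfr, coloured by group. Slc5a7 and Chat are high in the same libraries (r = 0.939 with group means removed), and the libraries with the most Ngfr (up to 46.1 RPM) also hold much Lhx8 and Chat.

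The genes most like the cholinergic pair were named by their Pearson r with the mean standardised deviation of Chat and Slc5a7 over the 28 libraries, as a description with no test. Of 13148 genes, 47 (0.357%) exceeded r = 0.7 and the median r was 0.163. Kcnk9, a tandem-pore potassium channel, was first (r = 0.934), with the endopeptidase gene Ecel1 (0.916) and Acly, ATP citrate lyase, which supplies cytosolic acetyl-CoA (0.884), after it. Slc10a4, an orphan transporter of cholinergic and monoaminergic vesicles, had 0.832. Plcb4 (0.851), Rgmb (0.828), Ndnf (0.822), Slc25a27 (0.81) and Amigo2 (0.797) were also among the first 10. Each of 5 other members had another gene at rank 1: Gpx3 for Lhx8 (0.921), Sv2a for Ache (0.914), Fbxo34 for Chrm1 (0.963), Zfp655 for Chrm2 (0.846) and Aff3 for Chrm3 (0.888). Neighbours were shared below that rank, with Plcb4 at rank 2 for Chrm2 (0.845) and Acly at rank 3 for Ache (0.9).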

How the data were processed

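Single-end reads of 75 nt were made from 28 striatal RNA samples with a stranded mRNA kit in 2 runs, per the labels' protocols. The sources used here do not assign libraries to runs, so run and group cannot be told apart. Alignment with STAR 2.6.1a to Rnor_6.0, counting with featureCounts of Subread 1.6.3 and DESeq2 1.22.2 are named in the submitters' processing notes, with no strand setting. The deposited table holds RPKM values that the authors computed per gene span, introns included, as tested on all 39538 rows; its unit was recorded as other, because of decimal commas, and treated as RPKM. RPKM times span gave RPM, which were whole multiples of 1 read for 100% of values (tolerance 0.02).

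With limma 3.58.1 in R 4.3.3, 1 model over all 28 libraries was fitted to log2 (RPM + 0.5) on the 4 groups, for genes with at least 0.5 RPM in 6 libraries, with 7 contrasts and calls at an adjusted p under 0.05 (Benjamini-Hochberg over all genes). A fold on this scale is understated for low genes. Permutation tests were exact over libraries, or used 100000 permutations within groups for relations (scipy 1.17.1, Python 3.11.15; figures with matplotlib 3.10.9). The model was tested on simulated data before use. Nothing in the labels says more of separate animals than a number per library, so p-values reflect the spread among the libraries, which may be technical. Sequences are RefSeq promoters on GRCr8.

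The members, 7 lists of acetylcholine genes and 12 marker lists (135 of 138 entries matched) were chosen with earlier results of these data known. Named were the members, list genes called in any contrast or else up to 3 of lowest p per list, and the 10 genes most like Chat and Slc5a7 among genes of at least 1 RPM; Slc18a3, at 0, left that pattern. Some genes that this rule names are not reported here. Of the named list genes, Chrnb1, Chrna5, Chkb, Slc44a2, Ly6h and Ly6e had adjusted p-values between 0.195 and 0.999. Alternatives were other pseudocounts, minima, scalings, fits, weights and covariates, whole reads with limma-voom, and leaving out libraries; the basal forebrain level as a covariate, its removal from relations, and relations without the 5 libraries high in Slc17a7 were added after seeing the data.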

Additional observations from a re-analysis of the deposited data

Results flagged for a closer look

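Among 32 sets of 1 gene in 1 group, 2 held a library that stood apart from the rest of its group; chance flags about 1 in 20 such sets. Both were for Chrm1 and both were the lowest of 6 crush libraries. TG crush replicate 223 had 67.2 RPM, where the next lowest TG crush library had 109.9 RPM. Wt crush replicate 203 had 103.5 RPM, where the next lowest wt crush library had 122.1 RPM. These libraries also had the 2 highest mitochondrial shares of all 28, 18.5% in TG crush replicate 223 and 15.9% in wt crush replicate 203. Across the 28 libraries, with group means removed, Chrm1 correlated with the mitochondrial share at r = -0.63 (rho = -0.532, adjusted permutation p = 0.0284 and 0.0434), and at -0.361 without the 2 farthest libraries. Ache correlated with it at r = -0.654 (rho = -0.61, adjusted permutation p = 0.00691 and 0.0157). TG crush replicate 223 also had the lowest summed spiny neuron level of its group, 7828 RPM, and the highest summed oligodendrocyte level, 34180 RPM, where the other TG crush libraries held at least 10130 and at most 23090 RPM. The part of these measures in the 2 low values was not tested.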

How the results depend on the processing

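No paired analysis was possible because no replicate number is shared between groups. Members called stayed at 0 in every alternative run for the 3 comparisons of TG with wt and for the interaction, of 8 tested in each except with deposited RPKM. In crush against naive TG rats, 0 to 1 passed when 1 library was left out, the 1 being Chrm1 without TG crush replicate 223. In wt rats 2 passed with array weights, as did 1436 of all genes. With the genotypes averaged, 1 passed with median-of-ratios rescaling (Chrm1 0.25, adjusted p = 0.0396), 1 with quantile normalization (Chrm1 0.22, adjusted p = 0.0454) and 2 with array weights (Chrm1 0.27, adjusted p = 0.00213, and Slc17a8 0.58, adjusted p = 0.00667). Of all 18222 genes, 2161, 2038 and 4579 passed in these settings, in the same order, where 2086 did in the main fit. Leaving out 1 library gave 0 to 2: both without TG crush replicate 223 or wt naive replicate 196, Chrm1 without wt naive replicate 198 or wt crush replicate 203, and Slc17a8 without TG crush replicate 226, TG naive replicate 187 or wt naive replicate 200. In those fits between 1936 and 3727 of all genes passed. Without the 5 libraries high in Slc17a7 the averaged values were 0.20 for Chrm1 (adjusted p = 0.216) and 0.34 for Slc17a8 (adjusted p = 0.292). Causes were not tested. Relations with an adjusted p under 0.05 numbered 10 over all libraries, 13 in naive and 1 in crush libraries alone, and 9 of 28 without the libraries high in Slc17a7. No value of a named gene called in its comparison changed sign. With deposited RPKM, which penalise long spans, Chat, Slc17a8, Lhx8 and Chrm3 did not pass the minimum and were not tested. Depth limits Chrm2 most.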

Other observations

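The ratio of Slc5a7 to Chat in RPM, chosen after its values were seen and given with no test, had a median of 1.57 (1.08 to 1.96) in TG crush libraries and 1.21 (1.06 to 1.28) in wt crush libraries. It lay between 0.984 and 1.3 in TG naive and between 0.931 and 1.58 in wt naive libraries. In 5 of 6 TG crush libraries the ratio lay above every wt crush and every TG naive library, the exception being replicate 226 at 1.08. The wt naive libraries reached as high as the median of the TG crush ones.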
